A study of Mus musculus with 9 samples.

Results

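Epithelial genes that mark liver progenitor cells and bile duct cells were followed in a liver tumor, in the liver next to it and in the liver of a wild-type mouse. The list held 10 genes, chosen by name: Epcam, Sox9, Sox4, Krt7, Krt19, Prom1, Cd24a, Spp1, Cftr and Muc1. Probe sets with only that gene symbol in the platform's annotation were taken, which gave 22 probe sets of 9 genes out of 34958 probe sets with 1 symbol. Spp1, which encodes the secreted matrix protein osteopontin, had no probe set with that symbol in the annotation used and was not analysed here. All 9 measured genes passed the filter on dim genes, among 13888 of 18194 genes.

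The tumor pieces, 3 in number, came from 1 male C57Bl6 mouse of genotype SART1+/-, and carried the labels hepatocellular carcinoma and severe steatosis. The 3 adjacent liver pieces came from the same SART1+/- mouse and were labelled cellular alteration with severe steatosis. The 3 wild-type pieces came from the liver of 1 male C57Bl6 mouse of genotype wildtype, labelled normal with mild steatosis. Both mice were 12 months old, untreated and on regular chow, and per the labels male SART1+/- mice developed such tumors from 10 months of age. RNA of each piece was hybridised to 1 Affymetrix 3' expression array. The pieces of a group share 1 animal, so every p-value below measures the spread between pieces and not between mice, and genotype, animal, labelled steatosis and tumor cannot be told apart in the comparisons with wild-type liver.

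The liver is built of hepatocytes and of cholangiocytes, the cells that line the bile ducts. Both arise from a common embryonic precursor, and injured or tumor-bearing livers can contain cells with features of such precursors. Cholangiocytes are usually recognised by the keratins Krt7 and Krt19, the adhesion molecule Epcam, the transcription factor Sox9 and the chloride channel Cftr. Prom1, Cd24a and Sox4 are commonly used as markers of progenitor-like or stem-like epithelial cells. In pieces of whole tissue, fewer cells of a type and less RNA per cell cannot be told apart.

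Values are log2 expression levels, so a difference of 1 is 2-fold. A gene was represented by its probe set with the highest mean level, and was called when limma's adjusted p was under 0.05 and the log2 difference was at least 1 in size. "Rose" and "fell" are used for called genes alone. Arrays of a group correlated at r = 0.996 to 0.998 over all probe sets, and the array medians lay between 5.76 and 5.81. No detection calls were used, and the 40th percentile of an array, 5.16 to 5.26, serves as the mark below which a level was counted as dim. The hepatocyte genes albumin (Alb), at 14.45 in tumor, 14.49 in adjacent liver and 14.45 in wild-type liver, and Hnf4a, at 12.30, 12.38 and 12.50 in the same order, were bright in all groups. From the same marker list, Tat (-2.55) and Cps1 (-1.37) fell in tumor against wild-type liver. Sart1 itself, by its brighter probe set, was at 7.74 ± 0.03 in tumor, 8.37 ± 0.03 in adjacent liver and 8.34 ± 0.02 in wild-type liver (SD, n = 3 each). By its dimmer probe set it was at 5.38 ± 0.13, 5.57 ± 0.16 and 5.71 ± 0.07 in the same order, with 2 of the 3 adjacent pieces below every wild-type piece. The brighter probe set thus showed no lower level in the adjacent pieces, and the dimmer one a lower mean with overlap. Where these probes lie with respect to the mutation was not known here.

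The list did not move as a block. By their brightest probe sets, Prom1, Cd24a and Sox4 rose by 3.64 to 5.08 in tumor and adjacent liver alike. For Sox4, 3 of 8 probe sets were called in neither tissue, and the mean of all 8 gave 1.58 in tumor. Sox9 was higher in both tissues by a smaller amount, and Cftr rose in adjacent liver. The classical duct keratins Krt7 and Krt19, the mucin Muc1 and Epcam were called in neither tissue against wild-type liver. In tumor, 3 of the 9 genes rose and 0 fell against wild-type liver, which is 33.3%, where 8.41% of all genes tested rose. In adjacent liver, 4 of 9 rose and 0 fell, which is 44.4%, where 8.29% of all genes tested rose. The count of 4 includes Cftr, which passed the filter on dim genes only through the 3 adjacent arrays, where it was high. These comparisons share the wild-type pieces, and the list was chosen with earlier results of these data known. The shares therefore describe the list and do not test it against all genes. Between tumor and adjacent liver 0 of 9 were called, where 5.04% of all genes were called in either direction, although 3 of the 9 passed the adjusted p with smaller differences. The median difference of the 9 genes was 0.46 for tumor and 0.99 for adjacent liver against wild-type liver, and -0.04 for tumor against adjacent liver. The medians over all genes tested were -0.013, -0.008 and -0.011.

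Of all genes tested, 63.4% passed the adjusted p for tumor and 63% for adjacent liver against wild-type liver, and 45.2% for tumor against adjacent liver. With the 2-fold limit 13% and 11.5% were called in the comparisons with wild-type liver, and 4.59% and 3.22% were called lower. For tumor against adjacent liver 2.1% were called higher and 2.94% lower. Tumor and wild-type pieces did not overlap for 5 of the 9 members, all higher in tumor, where 69.1% of all genes did not overlap and 35.9% were higher without overlap. Adjacent and wild-type pieces did not overlap for 6 of 9, 5 of them higher, where the shares were 69.5% and 36.5%. Tumor and adjacent pieces did not overlap for 4 of 9, 1 of them higher, where the shares were 53% and 24.5%. Counted in either direction, the share of members without overlap was below that of all genes in each comparison. Counted as higher alone, it was above that of all genes where wild-type pieces were the reference. Where adjacent pieces were the reference, it was below. The 5 members higher than wild-type pieces include Cftr in both comparisons. Cftr passed the filter on dim genes only through the 3 adjacent arrays, and was dim in tumor and wild-type liver. With 9 members these counts are small, and the differences in share were not tested.

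Of the 22 probe sets, 10 were called higher in tumor and 0 lower, where 5.45% of all probe sets with 1 symbol were called higher, 2.99% lower and 8.44% either way. In adjacent liver 11 were called higher and 0 lower, where 5.25% were called higher, 2.27% lower and 7.52% either way. For tumor against adjacent liver 1 was called higher and 0 lower, where 1.6% were called higher, 1.76% lower and 3.36% either way. Groups did not overlap for 14, 15 and 9 of the 22 in these comparisons, where 55.9%, 56.8% and 41% of all probe sets did not overlap. Probe sets of 1 gene share its symbol and are not independent measurements.

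**Figure D1:**
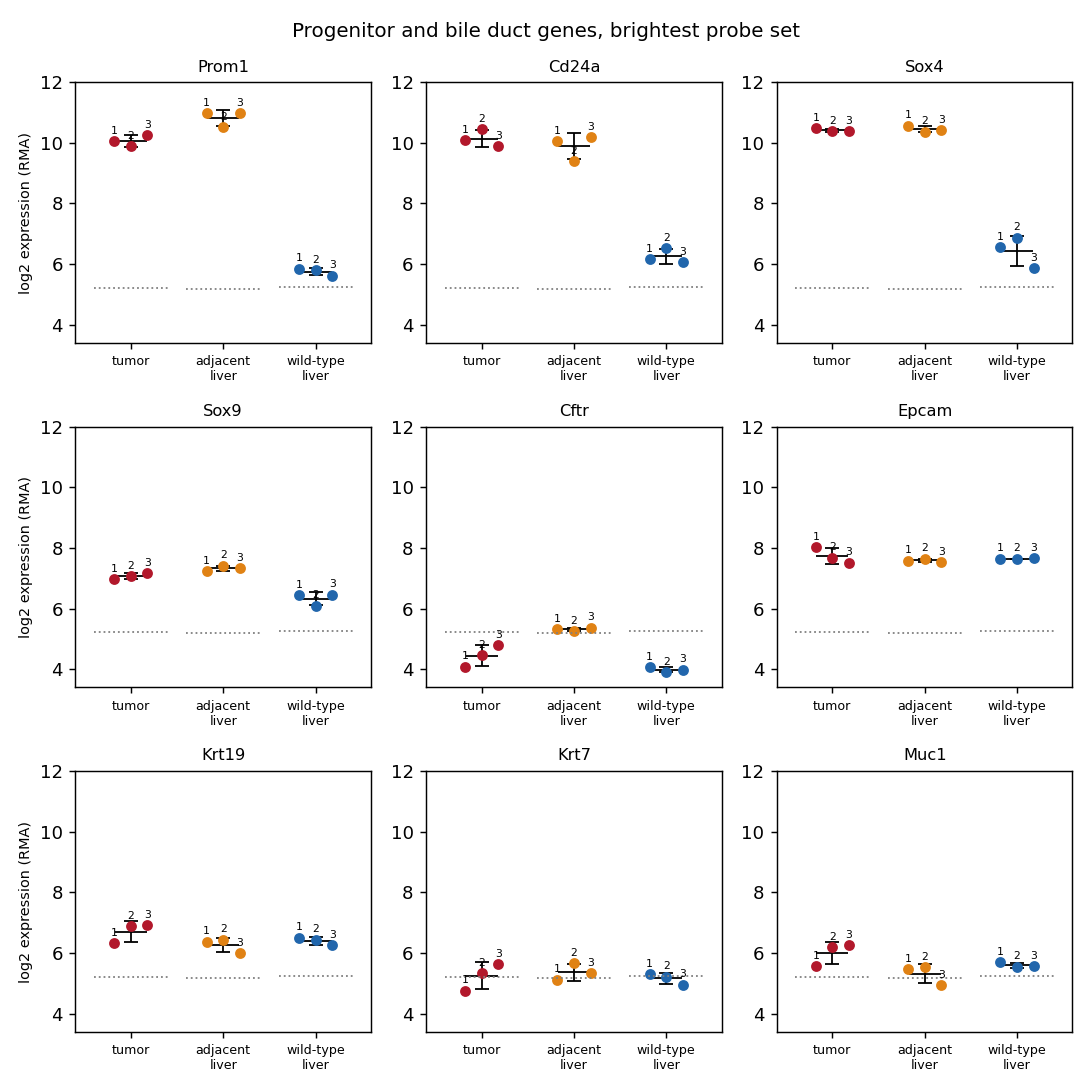
Log2 expression of the 9 measured genes on each array, by the brightest probe set of each gene, with piece numbers beside the points, black bars for the group mean and SD (n = 3), and dotted lines for the mean 40th percentile of the arrays of that group. Prom1, Cd24a and Sox4 lie between 9.40 and 10.99 in tumor and adjacent liver and between 5.62 and 6.87 in wild-type liver, while the points of Krt19, Krt7 and Epcam overlap between the groups.

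Prom1 encodes prominin-1, also known as CD133, a membrane protein of cell protrusions. Its level was 10.06, 9.89 and 10.26 in the tumor pieces, 10.98, 10.53 and 10.99 in the adjacent pieces, and 5.85, 5.79 and 5.62 in the wild-type pieces. All pieces of the SART1+/- mouse were above all wild-type pieces, and every adjacent piece was above every tumor piece. Prom1 rose by 4.32 in tumor (SE 0.13, 20-fold, adjusted p = 1.44e-09) and by 5.08 in adjacent liver (SE 0.13, 33.8-fold, adjusted p = 8.03e-10), each against wild-type liver. Tumor was below adjacent liver by a difference of -0.76 (95% interval -1.06 to -0.46, adjusted p = 0.000899), short of the 2-fold limit. Prom1 had 1 probe set, so no other measurement of it was available on the array.

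Cd24a encodes the small glycosylated surface protein CD24, which sits on progenitor-like epithelium and also on B cells and other blood cells. Its brightest probe set gave 10.08, 10.45 and 9.90 in tumor, 10.06, 9.40 and 10.20 in adjacent liver, and 6.15, 6.53 and 6.07 in wild-type liver. The tumor and adjacent pieces overlapped each other and were all above the wild-type pieces. Cd24a rose by 3.90 in tumor (SE 0.21, 14.9-fold, adjusted p = 7.3e-08) and by 3.64 in adjacent liver (SE 0.21, 12.5-fold, adjusted p = 1.54e-07). Its other 2 probe sets, in a fit of all probe sets with 1 symbol, gave 3.99 and 3.65 for tumor and 3.62 and 3.35 for adjacent liver. Tumor minus adjacent liver was 0.25 (95% interval -0.21 to 0.72, adjusted p = 0.371), so a difference between those tissues was not detectable with 3 pieces each. Of 5 B cell markers with a probe set, Cd79b (1.04) and Jchain (2.23) rose in tumor and none rose in adjacent liver, where Cd79b was at 0.65 and Jchain at 0.19. The average log2 level over the B cell list was 7.30 to 7.54 in tumor, 6.52 to 6.75 in adjacent liver and 6.26 to 6.41 in wild-type liver, and its part in the Cd24a level was not tested.

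Sox4, a SOX family transcription factor of embryonic and progenitor cells, has roles in bile duct development in the mouse. Its brightest probe set gave 10.48, 10.39 and 10.39 in tumor, 10.57, 10.37 and 10.42 in adjacent liver, and 6.56, 6.87 and 5.87 in wild-type liver. The pieces of the SART1+/- mouse lay close together, far above wild-type liver, whose 3 pieces spread more widely. Sox4 rose by 3.99 in tumor (SE 0.195, 15.8-fold, adjusted p = 3.59e-08) and by 4.02 in adjacent liver (SE 0.195, 16.3-fold, adjusted p = 4.34e-08). Tumor minus adjacent liver was -0.04 (95% interval -0.47 to 0.40, adjusted p = 0.902).

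Sox4 had 8 probe sets, and they did not all show this change. In the fit of all probe sets, 5 of the 8 were called higher in each tissue, by 1.5 to 3.99 in tumor and by 1.42 to 4.02 in adjacent liver. Their wild-type means were 6.43, 6.88, 5.65, 4.90 and 5.76. The other 3, with wild-type means of 6.29, 5.85 and 4.98, gave -0.08, -0.15 and -0.50 in tumor (adjusted p = 0.393, 0.168 and 0.000268) and -0.09, -0.18 and -0.30 in adjacent liver (adjusted p = 0.359, 0.107 and 0.00748). The dimmest of these lay below the 40th percentile on all 9 arrays. The called and uncalled probe sets overlapped in wild-type level, and they disagreed on whether Sox4 changed.

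Sox9, the transcription factor that marks bile duct and progenitor epithelium, was also above wild-type liver in every piece. Its brightest probe set gave 6.96, 7.06 and 7.16 in tumor, 7.23, 7.42 and 7.33 in adjacent liver, and 6.44, 6.10 and 6.46 in wild-type liver. The order was adjacent liver, tumor and wild-type liver, with no overlap between any of them. The difference was 0.73 in tumor (SE 0.10, 1.66-fold, adjusted p = 0.000104) and 0.99 in adjacent liver (SE 0.10, 1.99-fold, adjusted p = 1.13e-05), both short of the 2-fold limit and so not called. Another probe set of almost the same brightness gave 7.03, 7.13 and 7.08 in tumor, 7.30, 7.56 and 7.43 in adjacent liver, and 5.80, 5.98 and 6.13 in wild-type liver. By that probe set Sox9 was called higher in tumor (1.11, SE 0.093, adjusted p = 1.41e-06) and in adjacent liver (1.46, SE 0.093, adjusted p = 1.79e-07). Tumor minus adjacent liver was -0.26 (adjusted p = 0.0573) by the brightest probe set and -0.35 (adjusted p = 0.0128) by the other. The remaining probe set was dim on all 9 arrays, with means of 3.89 in tumor, 3.85 in adjacent liver and 3.68 in wild-type liver.

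Of 12 further SOX family genes, 8 passed the filter, and limma called 0 of these 8 in any of the 3 comparisons. Of all genes tested, 13% were called in tumor and 11.5% in adjacent liver against wild-type liver, and 5.04% between tumor and adjacent liver. A count of 0 among 8 genes lies near these shares. The medians of the 8 were 0.05 in tumor and 0 in adjacent liver against wild-type liver. Among them Sox18, a factor of endothelial cells, was at 0.65 in tumor (adjusted p = 0.00461) and Sox12 at -0.33 (adjusted p = 0.000634).

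**Figure D2:**
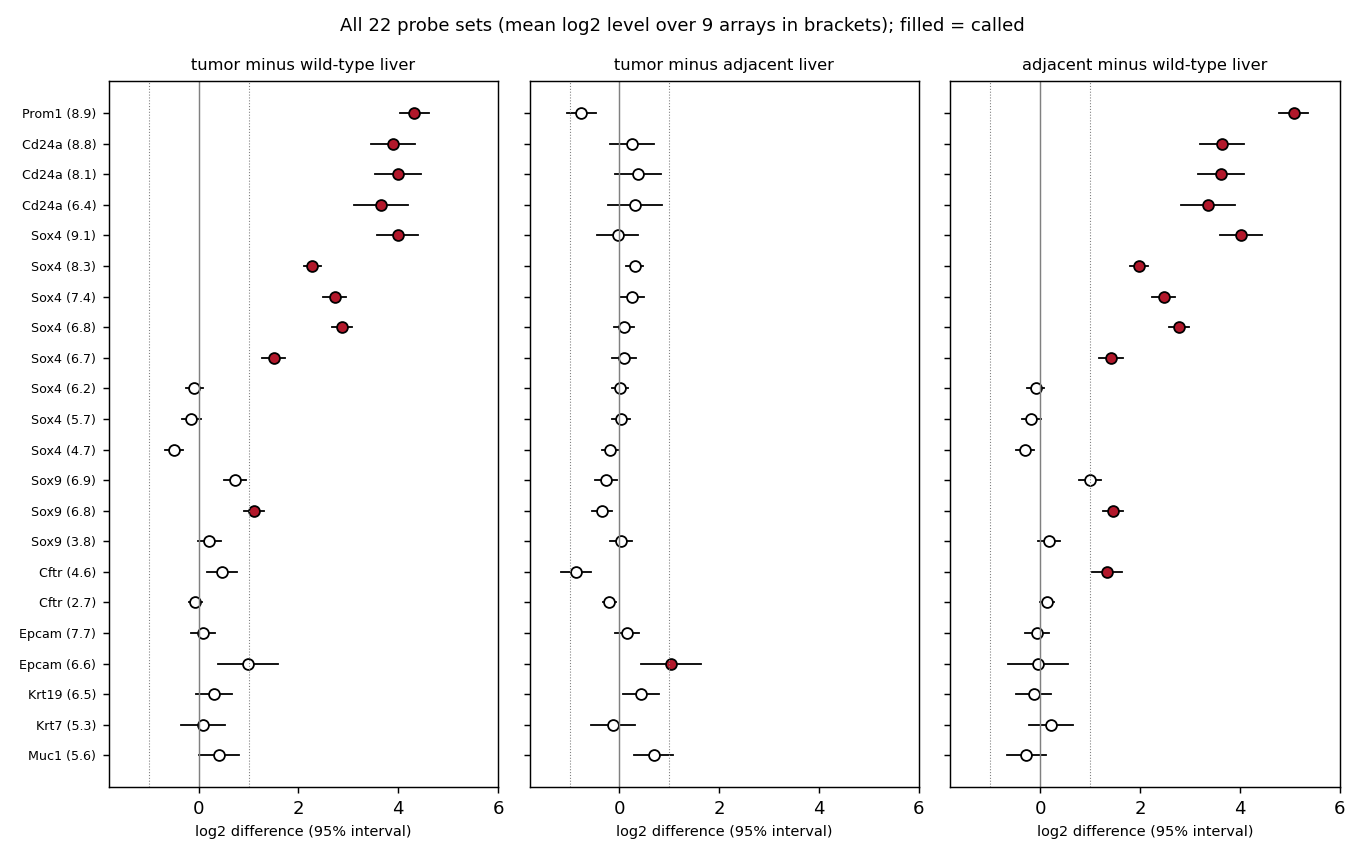
Log2 differences of all 22 probe sets of the 9 genes in the 3 comparisons, from a fit of all probe sets with 1 symbol, with 95% intervals, filled symbols for called probe sets, dotted lines at a difference of 1 in size and the mean level over the 9 arrays in brackets. Called probe sets number 10 in tumor and 11 in adjacent liver against wild-type liver, all higher, and 1 for tumor against adjacent liver, the dimmer probe set of Epcam.

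The promoters of Prom1 and Sox4, which rose together, and of Epcam, which was not called by its brightest probe set, are shown for comparison. They run from 250 bases before to 50 bases after the gene start on assembly GRCm38.p6, as given by RefSeq, 5′ to 3′ along the gene. Promoters were at hand for 7 of the 10 genes. Prom1 has a further listed start, chr5:44094719-44095018, which is not printed. Capitals mark matches, on either strand, to the TEAD motif GGAATG, the RBPJ motif TGGGAA or the SOX motif AACAAT, the binding sequences of the DNA-binding partners of YAP and Notch and of SOX factors.
Prom1 (chr5:44101687-44101986, minus strand): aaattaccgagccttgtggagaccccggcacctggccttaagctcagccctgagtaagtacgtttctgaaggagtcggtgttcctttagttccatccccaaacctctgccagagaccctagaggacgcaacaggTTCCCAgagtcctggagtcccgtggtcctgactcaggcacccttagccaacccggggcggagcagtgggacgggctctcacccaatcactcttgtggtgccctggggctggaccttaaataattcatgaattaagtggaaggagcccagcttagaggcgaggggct
Sox4 (chr13:28953650-28953949, minus strand): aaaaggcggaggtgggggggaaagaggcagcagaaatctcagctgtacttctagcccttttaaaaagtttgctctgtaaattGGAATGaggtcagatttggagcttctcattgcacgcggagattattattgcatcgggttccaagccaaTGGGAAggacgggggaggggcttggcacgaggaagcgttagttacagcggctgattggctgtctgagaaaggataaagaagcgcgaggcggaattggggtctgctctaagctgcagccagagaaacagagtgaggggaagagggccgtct
Epcam (chr17:87635729-87636028, plus strand): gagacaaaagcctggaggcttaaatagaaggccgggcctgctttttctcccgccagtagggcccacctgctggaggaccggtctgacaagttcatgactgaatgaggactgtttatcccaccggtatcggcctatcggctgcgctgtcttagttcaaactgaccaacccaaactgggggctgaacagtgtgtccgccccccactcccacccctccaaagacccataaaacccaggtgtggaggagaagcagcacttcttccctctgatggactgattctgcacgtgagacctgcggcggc
The Prom1 window held 1 RBPJ match, on the other strand, starting 116 bases before the gene start. The Sox4 window held 1 TEAD match starting 168 bases before and 1 RBPJ match starting 100 bases before the gene start. The Epcam window held 0 matches to the 3 motifs. Among windows not printed, those of the further Prom1 start, of Cftr and of Krt7 also held 0 matches. The window of Muc1, which was not called, held 1 TEAD match, so matches did not follow the calls. Of 32851 promoter windows of this length, 14.7% held the TEAD motif, 25.6% the RBPJ motif and 10.7% the SOX motif. The windows of Prom1, Sox4 and Epcam held 10, 12 and 11 CpG dinucleotides, against a median of 7 over all windows. These matches describe letters in the reference sequence and not sites in use.

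Cftr, the chloride channel of the bile duct surface that drives fluid into bile, was low on these arrays. Its brighter probe set gave 4.08, 4.46 and 4.78 in tumor, 5.33, 5.26 and 5.37 in adjacent liver, and 4.06, 3.89 and 3.98 in wild-type liver. The adjacent pieces were above all others, and they alone lay above the 40th percentile, so Cftr passed the filter through them and was not tested when any 1 of them was left out. It rose by 1.34 in adjacent liver (SE 0.14, 2.53-fold, adjusted p = 1.29e-05), a size that depends on background because the wild-type level was dim. Tumor differed from wild-type liver by 0.46 (adjusted p = 0.0146) and from adjacent liver by -0.88 (95% interval -1.19 to -0.57, adjusted p = 0.00047). The tumor difference from adjacent liver reached the call without tumor piece 3, at -1.05 (adjusted p = 5.78e-05). A dimmer probe set lay at 2.55 to 2.84 on all 9 arrays.

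Epcam, the epithelial cell adhesion molecule found on bile duct cells and on progenitors but not on most adult hepatocytes, gave different answers by its 2 probe sets. The brighter one gave 8.03, 7.68 and 7.52 in tumor, 7.58, 7.65 and 7.53 in adjacent liver, and 7.65, 7.65 and 7.66 in wild-type liver. By it the groups overlapped and no difference was called (tumor minus wild-type liver 0.09, 95% interval -0.15 to 0.33, adjusted p = 0.486). The dimmer one gave 6.44, 7.72 and 7.66 in tumor, 6.22, 6.44 and 6.05 in adjacent liver, and 6.47, 6.34 and 6.05 in wild-type liver. By it tumor pieces 2 and 3 were above every other piece, while tumor piece 1 lay within the range of wild-type liver. In the fit of all probe sets this one rose in tumor against adjacent liver by 1.03 (SE 0.27, adjusted p = 0.013) and differed from wild-type liver by 0.99 (SE 0.27, adjusted p = 0.0112). The rise against adjacent liver was lost without adjacent piece 3, tumor piece 2 or tumor piece 3, at 0.94, 0.81 and 0.84 (adjusted p = 0.0549, 0.0638 and 0.0583), and without tumor piece 1 the difference from wild-type liver was 1.40 (adjusted p = 1.55e-05). Adjacent minus wild-type liver was -0.05 by this probe set (95% interval -0.65 to 0.55, adjusted p = 0.9).

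Krt19, a keratin of bile duct cells, gave 6.32, 6.88 and 6.93 in tumor, 6.38, 6.44 and 6.0 in adjacent liver, and 6.51, 6.44 and 6.26 in wild-type liver. Tumor pieces 2 and 3 were again the highest and tumor piece 1 lay among the others. The difference between tumor and wild-type liver was 0.31 (95% interval -0.06 to 0.68, adjusted p = 0.128), and between tumor and adjacent liver 0.44 (95% interval 0.07 to 0.81, adjusted p = 0.0529). Adjacent minus wild-type liver was -0.13 (adjusted p = 0.508).

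Muc1, a cell surface mucin of duct and gland epithelium, gave 5.58, 6.19 and 6.25 in tumor, 5.48, 5.53 and 4.95 in adjacent liver, and 5.69, 5.55 and 5.56 in wild-type liver. All tumor pieces were above all adjacent pieces, and the difference of 0.69 (SE 0.19, 1.61-fold, adjusted p = 0.0116) was short of the 2-fold limit. Tumor minus wild-type liver was 0.41 (adjusted p = 0.0778), with tumor piece 1 inside the wild-type range, and adjacent minus wild-type liver was -0.28 (adjusted p = 0.213).

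Krt7, the other duct keratin of the list, gave 4.76, 5.34 and 5.64 in tumor, 5.12, 5.68 and 5.33 in adjacent liver, and 5.30, 5.22 and 4.96 in wild-type liver. These values straddle the 40th percentile and overlap in all groups. The differences were 0.09 in tumor (95% interval -0.38 to 0.55, adjusted p = 0.733) and 0.21 in adjacent liver (95% interval -0.25 to 0.68, adjusted p = 0.386) against wild-type liver. A change of the size seen for Prom1, Cd24a or Sox4 by their brightest probe sets lies outside both intervals. Krt7 had 1 probe set, so the intervals cover the signal of that probe set alone.

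**Figure D3:**
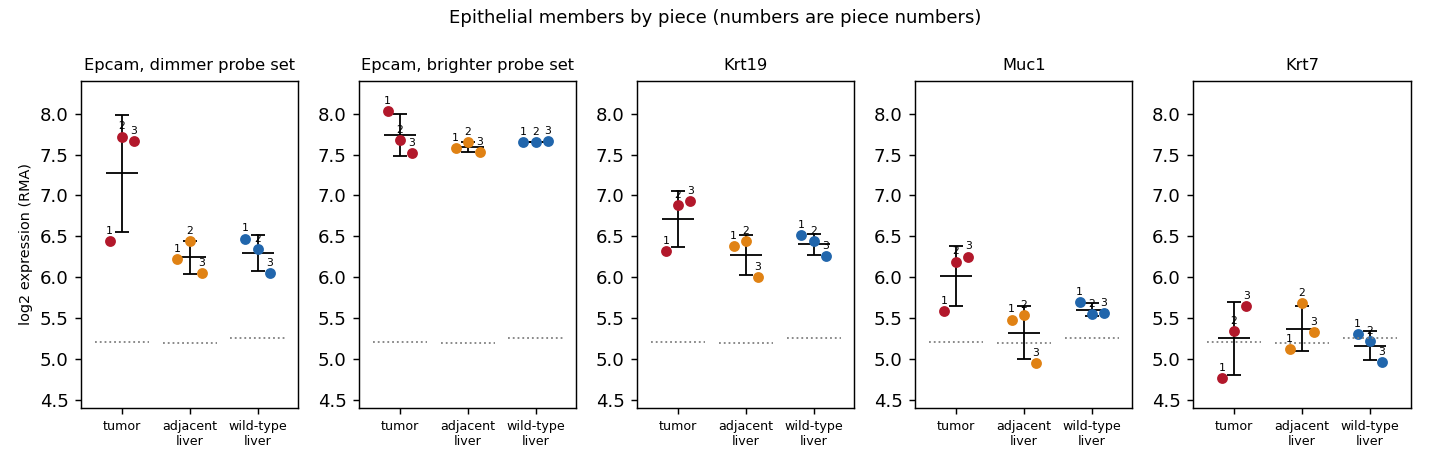
Log2 expression of both Epcam probe sets, Krt19, Muc1 and Krt7 in each piece, with piece numbers beside the points, black bars for the group mean and SD (n = 3) and dotted lines for the mean 40th percentile. For the dimmer Epcam probe set, Krt19 and Muc1, tumor pieces 2 and 3 lie above all other points and tumor piece 1 lies among the adjacent and wild-type pieces.

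Tumor piece 1 was also the lowest of the 3 for Cftr (4.08, against 4.46 and 4.78 in tumor pieces 2 and 3), for Krt7 and for Sox9. It was not the lowest for Prom1, Cd24a or Sox4, and by the brighter Epcam probe set it was the highest of all 9 arrays, at 8.03. Other measures differed between these pieces as well. The 3' minus 5' signal of Actb, a measure of RNA integrity, was 0.69 in tumor piece 1 and 0.54 and 0.55 in tumor pieces 2 and 3. All 3 tumor pieces lay below the other arrays in this measure, with means of 0.59 ± 0.09 in tumor, 0.85 ± 0.05 in adjacent liver and 0.86 ± 0.02 in wild-type liver (SD, n = 3 each). The same measure for Gapdh did not set tumor piece 1 apart, at 0.20, against 0.23 and 0.21 in tumor pieces 2 and 3, and averaged 0.21 in tumor, 0.16 in adjacent liver and 0.27 in wild-type liver. The average level of 9 stellate and fibroblast markers was 9.02, 9.43 and 9.54 in tumor pieces 1, 2 and 3, that of 5 B cell markers 7.30, 7.37 and 7.54, and that of 6 mesothelial markers, a cell type that also makes Krt7 and Krt19, 4.80, 4.96 and 5.13. Of the mesothelial markers 2 or 3 of 6 were above the 40th percentile on each tumor array. That list averaged 4.97 to 5.06 in adjacent liver and 4.91 to 5.42 in wild-type liver. The part of these measures in the values of the duct genes, and of the Actb difference in the tumor comparisons, was not tested.

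Krt8 and Krt18, the keratin pair of hepatocytes that duct cells also carry, were bright everywhere and rose in both tissues. Krt18 gave 13.29, 13.30 and 13.15 in tumor, 13.10, 13.08 and 13.08 in adjacent liver, and 11.45, 11.33 and 11.32 in wild-type liver, with differences of 1.88 in tumor (adjusted p = 2.36e-09) and 1.72 in adjacent liver (adjusted p = 6.07e-09). Krt8 rose by 1.46 in tumor and 1.59 in adjacent liver. Krt23 rose by 2.41 in tumor and 1.63 in adjacent liver, and Krt20, a keratin best known from the gut, by 1.64 and 1.99 in the same order. Of the 5 genes of this list, 4 rose in each tissue, with list medians of 1.64 in tumor and 1.63 in adjacent liver, and Krt80 was at 0.06 and 0.08. Between tumor and adjacent liver 0 of the 5 were called, where 5.04% of all genes were called.

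Other bile duct genes were divided. Of 17 tested, 5 rose and 1 fell in tumor, with a median of -0.01, and 7 rose and 0 fell in adjacent liver, with a median of 0.53. Over all genes tested, 8.41% rose and 4.59% fell in tumor, and 8.29% rose and 3.22% fell in adjacent liver. These shares also stand beside the keratin and B cell lists above. They stand likewise beside the progenitor, EpCAM partner, osteopontin receptor and cell type marker lists described below. Cldn7, a claudin that binds EpCAM, gave 9.13, 9.02 and 9.34 in tumor, 10.65, 10.52 and 10.82 in adjacent liver, and 5.51, 5.30 and 5.26 in wild-type liver. It rose by 3.81 in tumor and by 5.31 in adjacent liver against wild-type liver, from a level near the 40th percentile there. E-cadherin, encoded by Cdh1, rose by 2.93 in tumor and 3.45 in adjacent liver, Anxa13, an annexin of epithelial cells, by 3.59 and 6.24, and Bicc1, an RNA-binding protein needed for normal ducts in mouse kidney, by 1.89 and 2.41. Elf3, an epithelial ETS factor, and the trefoil factor Tff2 rose in adjacent liver, by 1.49 and 1.04, and were at 0.34 and 0.09 in tumor.

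Against adjacent liver, 4 of these 17 genes fell in tumor and 0 rose, where 2.94% of all genes fell. They were Cldn7 at -1.5 (adjusted p = 1.71e-06), Anxa13 at -2.65 (adjusted p = 3.82e-06), Elf3 at -1.16 (adjusted p = 3.05e-05) and the bile acid importer Slc10a2 at -1.31 (adjusted p = 6.88e-05). Prom1, Sox9 and Cftr were not called here but were lower in every tumor piece than in every adjacent piece. Other members went the other way. Muc1 was higher in every tumor piece, and the dimmer Epcam probe set was called higher at 1.03. Tumor and adjacent pieces did not overlap for 53% of all genes. Some other genes of duct transport and cilia were not called against wild-type liver in either tissue. The secretin receptor gene Sctr was at -0.03 in tumor and -0.11 in adjacent liver, the water channel gene Aqp1 at -0.44 and -0.41, the anion exchanger gene Slc4a2 at -0.01 and 0.53, and Pkhd1, the gene of polycystic liver and kidney disease, at 0.18 and 0.79.

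**Figure D4:**
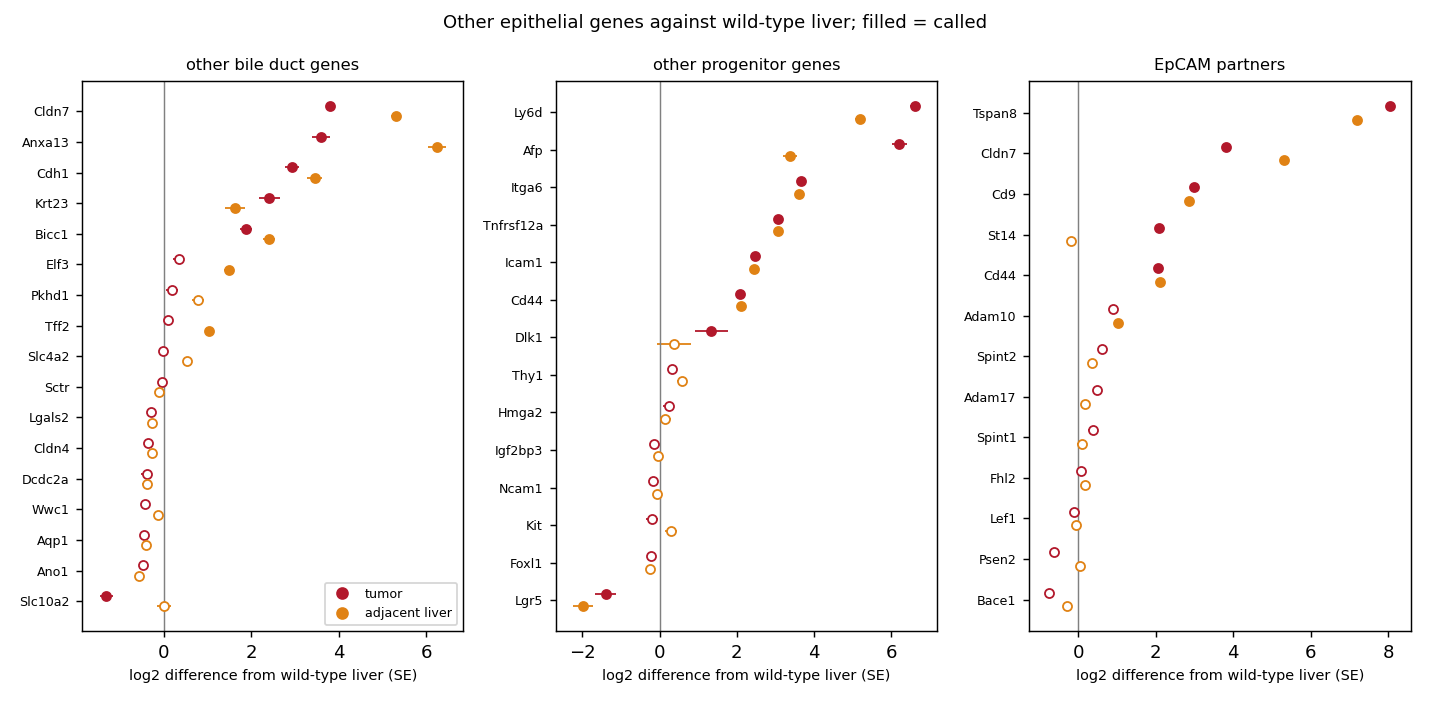
Log2 differences from wild-type liver of tested genes of the lists of other bile duct genes, other progenitor genes and EpCAM partners, in tumor and adjacent liver, with the SE, filled symbols for called genes and open symbols for the rest. Cldn7 and Anxa13 lie further right in adjacent liver, St14 and Ly6d further right in tumor, and most duct transport genes lie near 0.

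Other progenitor and oval cell genes rose in part. Of 14 tested, 7 rose and 1 fell in tumor (median 0.84), and 6 rose and 1 fell in adjacent liver (median 0.47). Tnfrsf12a, the receptor for the progenitor mitogen TWEAK, gave 11.93, 11.87 and 11.93 in tumor, 11.98, 11.87 and 11.91 in adjacent liver, and 8.93, 8.79 and 8.83 in wild-type liver. It rose by 3.06 in tumor (adjusted p = 8.22e-11) and 3.07 in adjacent liver (adjusted p = 1.4e-10). The integrin gene Itga6 rose by 3.65 and 3.6, the hyaluronan and osteopontin receptor gene Cd44 by 2.07 and 2.12, and Ly6d by 6.61 and 5.19. Alpha-fetoprotein, Afp, rose by 6.21 in tumor and 3.38 in adjacent liver. Dlk1, a surface marker of fetal liver precursors, gave 8.31, 6.25 and 6.34 in tumor and 6.17, 5.77 and 6.04 in adjacent liver, so here tumor piece 1 was the highest. Lgr5, a Wnt target of pericentral hepatocytes and stem cells, fell, at -1.4 in tumor and -1.98 in adjacent liver. Foxl1, Kit, Ncam1 and Thy1, further genes used to mark oval cells, were at -0.23, -0.20, -0.18 and 0.33 in tumor and were not called in either tissue.

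Tspan8, a tetraspanin that forms complexes with EpCAM, gave 12.68, 12.80 and 12.62 in tumor, 11.94, 11.77 and 11.85 in adjacent liver, and 4.85, 4.56 and 4.57 in wild-type liver. It rose by 8.04 in tumor and 7.20 in adjacent liver, sizes that depend on background because the wild-type level was dim. Other probe sets of Tspan8, in the fit of all probe sets, gave smaller differences, 1.92 to 5.32 in tumor and 0.83 to 4.02 in adjacent liver. They were called higher in tumor against adjacent liver, by 1.1 to 1.43, where the brightest probe set gave 0.85 and was not called. The tetraspanin gene Cd9 rose by 2.99 and 2.86. St14, which encodes matriptase, a protease that cleaves EpCAM, gave 8.62, 8.78 and 8.55 in tumor, 6.36, 6.52 and 6.29 in adjacent liver, and 6.44, 6.63 and 6.63 in wild-type liver. It rose in tumor against wild-type liver by 2.09 and against adjacent liver by 2.26 (adjusted p = 3.3e-08). The genes of its inhibitors, Spint1 and Spint2, were at 0.38 and 0.61 in tumor, short of the 2-fold limit. Of 13 tested genes of this list, 5 rose and 0 fell in each tissue, with medians of 0.61 in tumor and 0.18 in adjacent liver.

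Notch signalling and YAP, which the Hippo pathway restrains, can direct hepatocytes and precursors towards a duct fate in mouse liver. Genes of the Notch and Hippo pathways were tested as lists. The Hippo list mixes genes that restrain YAP with YAP, its partners and its targets, so its counts and medians have no direction for duct fate. Of 18 Notch and duct morphogenesis genes, 1 rose and 1 fell in each tissue, where 13% of all genes were called in tumor and 11.5% in adjacent liver. Hes1, a target of Notch, gave 9.28, 9.24 and 9.47 in tumor, 9.53, 9.69 and 9.70 in adjacent liver, and 7.99, 7.84 and 7.57 in wild-type liver, and rose by 1.53 and 1.84. Tbx3, a T-box factor of liver precursors, fell, at -1.91 in tumor and -1.81 in adjacent liver. The ligand gene Jag1 was at 0.76 and 0.57 and the receptor gene Notch1 at 0.44 and 0.32. Of 18 Hippo pathway genes and YAP targets, 3 rose and 0 fell in each tissue, where 8.41% of all genes rose in tumor and 8.29% in adjacent liver, with medians of 0.16 in tumor and 0.08 in adjacent liver. Ajuba rose by 2.53 and 2.88, and Tgfb2 by 2.38 and 2.69. Axl rose in tumor by 1.22 and was at 0.97 in adjacent liver, while Tead1 rose in adjacent liver by 1.17 and was at 0.78 in tumor. The frequently used YAP targets Ccn1 and Ccn2 were at -0.16 and -0.39 in tumor and at 0.09 and -0.38 in adjacent liver.

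Receptors and proteases of osteopontin were measured although Spp1 was not. Of 13 tested, 2 rose in each tissue and 0 fell, Cd44 as above and Itga4 by 1.08 in tumor and 1.14 in adjacent liver. The integrin genes Itgav, Itgb5 and Itgb3 were at 0.83, 0.70 and 0.76 in tumor, and at 0.67, 0.81 and 0.28 in adjacent liver. Macrophage and stellate markers, cell types that can also make osteopontin, rose beside them. Of 10 macrophage markers, 5 rose and 0 fell in tumor, and 5 rose and 1 fell in adjacent liver, with list averages of 9.30 to 9.64 in tumor, 9.15 to 9.28 in adjacent liver and 8.27 to 8.32 in wild-type liver. Of 9 stellate and fibroblast markers, 5 rose and 1 fell in each tissue, with averages of 9.02 to 9.54 in tumor, 9.20 to 9.54 in adjacent liver and 7.92 to 8.43 in wild-type liver. Of 6 tested neutrophil markers 3 rose in each tissue, and of 8 endothelial markers 2 rose in each. The average of 6 pancreas markers lay between 6.40 and 6.62 on all 9 arrays, with 0 of 4 tested genes called. The average of 7 hepatocyte markers was 13.06 to 13.14 in tumor, 13.27 to 13.31 in adjacent liver and 13.70 to 13.71 in wild-type liver. Of these 7, 0 rose and 2 fell in tumor, and 0 rose and 1 fell in adjacent liver. The part of these cell types in the levels of the progenitor and duct genes was not tested.

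For the called genes, the most similar patterns over the 9 arrays were sought among the 13888 genes tested, as the root mean square difference of log2 values after centring each gene on its own mean. Nearest to Prom1 was Tmem54, at 0.147, followed by D17H6S56E-5 at 0.315 and Tcf24 at 0.318. Nearest to Sox4 were Mfge8, a secreted bridge between dying cells and phagocytes, at 0.236, the inflammatory caspase gene Casp4 at 0.292 and the adaptor gene Blnk at 0.298. Nearest to Cd24a were Prelid2 at 0.229, the prostaglandin reductase gene Ptgr1 at 0.231 and again Mfge8 at 0.266. Nearest to Cftr were Emilin1, an elastic fibre protein, at 0.101, and Ostf1 and Plce1, each at 0.133. The arrays fall into 3 groups, so these distances mainly reflect the group means.

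Some genes named beside the list also had probe sets that did not share the call. Dimmer probe sets of Afp gave -0.11 and 0.67 in tumor, a dimmer one of Tspan8 gave 0.83 in adjacent liver, and a dimmer one of Prelid2 gave -0.02 in tumor. Other probe sets of Tbx3 gave -0.24, -0.01 and -0.71 in tumor, and 1 of Tead1 gave -0.10 in adjacent liver. Other probe sets of Itga4, Cd44, Lgr5, Dlk1, Axl and Tgfb2 with means below the 40th percentile were not called either. Conversely, some list genes counted as not called had a dimmer probe set that was called. Igf2bp3 of the progenitor list gave 1.7 and 1.23 in tumor and 1.96 and 1.72 in adjacent liver by such probe sets. Onecut1, Onecut2 and Maml1 of the Notch list gave -1, -1.12 and -1.66 in tumor. Itgav gave 1.07 in tumor and Sox17 gave 1.01 in adjacent liver.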

How the data were processed

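RNA of 9 tissue pieces was measured on 1-colour Affymetrix 3' arrays with 45101 probe sets. Per the submitters' processing notes, the authors summarised each probe set by RMA (Expression Console, version 1.3.1.187), and the deposited values are log2 expression levels. Because RMA gives all arrays 1 distribution, a shift shared by most genes would not be seen. A genome build was not needed for these values.

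Symbols came from the platform annotation: 34958 probe sets had 1 symbol, 932 several and 9211 none, and those with 1 were used. The brightest probe set stood for a gene, and the gene was tested if this exceeded the array's 40th percentile on 3 or more of the 9 arrays. Differences were fitted with limma 3.58.1 in R 4.3.3 (lmFit, eBayes, 1 mean per group, 6 residual degrees of freedom), adjusted by Benjamini-Hochberg over the 13888 genes, and again over all 34958 probe sets with no filter. Every adjusted p comes from limma, and intervals are 95% intervals from its moderated SE. In simulated data of 13888 genes, 50 of 50 changes of 2 were called in each comparison, and 19 to 20 of 50 changes of 1, the call limit itself.

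The members, the lists, the comparisons and the naming rule were chosen with earlier results of these data known. The rule named all members, up to 4 genes a list, by adjusted p, for tumor against each other group, and the 3 genes nearest in pattern to each called member. Other list genes were named after their values were seen. Replicate numbers carry no stated pairing, and deviations of same-numbered arrays correlated at -0.113 to 0.138. The number of arrays limits the precision. Filters, scalings and left-out arrays were tried as alternatives.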

Additional observations from a re-analysis of the deposited data

How the results depend on the processing

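The counts of members called, 3 for tumor and 4 for adjacent liver against wild-type liver and 0 for tumor against adjacent liver, were recomputed with other filters, probe set rules, scalings, variance models and array weights, with the 2 groups alone, and without each array. With no minimum difference the counts became 5, 5 and 3, and 8799, 8745 and 6274 genes passed in all, against 1806, 1599 and 700. Of the 22 probe sets, 7 then passed for tumor against adjacent liver in place of 1. The count of 0 became 1 with the most variable probe set or with any probe set of a gene (Epcam, 1.03, the second of these chosen after seeing the data). Leaving out tumor piece 3 gave 1 as well (Cftr). Leaving out adjacent piece 3 or tumor piece 2 gave 0 probe sets. Leaving out 1 array gave 3 to 3, 3 to 5 and 0 to 1 members, 10 to 11, 11 to 12 and 0 to 1 probe sets, and 1777 to 1821, 1570 to 1624 and 666 to 718 genes, for tumor against wild-type, adjacent against wild-type and tumor against adjacent liver. Sox9 in adjacent liver was called at 1.46 with the most variable probe set, 1.02 with array medians and 1.005 with cyclic loess.

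With the replicate number as a block, 3, 4 and 0 members and 1807, 1599 and 700 genes were called, and no member's call changed. Differences that were not called turned sign in some fits without 1 piece, with ranges of -0.053 to 0.201 for Epcam in tumor, -0.112 to 0.332 for Krt7 in tumor, -0.212 to 0.007 for Krt19 in adjacent liver, -0.167 to 0.047 for the dimmer Epcam probe set in adjacent liver, and, for tumor against adjacent liver, -0.079 to 0.02 for Sox4 and -0.326 to 0.118 for Krt7. Sox4 there was also 0.068 with the mean of its probe sets. The cause was not tested. Levels below the 40th percentile, such as Cftr outside adjacent liver, limit how far their differences can be read.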
